A study of Mus musculus with 40 samples.

Results

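The genes described are 8 transcription factors of the neural crest, *Sox8*, *Sox9*, *Sox10*, *Tfap2a*, *Tfap2b*, *Twist1*, *Snai1* and *Snai2*, taken by gene symbol from the E9.5 count data, which list 26411 genes. All 8 were among the 14183 protein-coding genes with enough reads to test. The study asked how far KAT6A and KAT6B, which regulate chromatin, act in mouse development through their acetyltransferase domains, by setting embryos with a point mutation in that domain beside embryos homozygous for a deletion allele. Bulk RNA-sequencing was done on 24 whole E9.5 embryos from 17 litters, 4 embryos for each of 6 genotypes, all on a C57BL/6 background. Wild-type (WT) embryos carried normal alleles of both genes. *Kat6a*-/- embryos were homozygous for the deletion allele labelled cfd, with *Kat6b* WT, and *Kat6b*-/- embryos were homozygous for the deletion allele labelled dec, with *Kat6a* WT. *Kat6a* E/E embryos were homozygous for G656E and *Kat6b* E/E embryos for G577E, each with the other gene WT, and embryos of the genotype *Kat6a* E/E;*Kat6b* E/E, called double-mutant embryos here, were homozygous for both point mutations. All alleles were germline, so every cell of an embryo was mutant, and each library holds the RNA of all tissues of 1 embryo.

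The neural crest arises at the border between the neural tube and the surface ectoderm, and its cells delaminate, migrate and give rise to craniofacial cartilage and bone, peripheral neurons, glia and pigment cells. In the usual account of the crest gene network, AP-2 factors act early at the border, Snail factors and Twist1 act in the epithelial-to-mesenchymal transition, and the SoxE factors Sox8, Sox9 and Sox10 act in crest specification and later in cartilage, glia and pigment lineages. None of the 8 genes is specific to the crest at this stage. *Sox9* is also expressed in somites and otic vesicle, *Tfap2a* and *Tfap2b* in surface ectoderm or kidney precursors, and *Twist1* and the Snail genes in much of the mesoderm. In a whole embryo, fewer cells of a type and less RNA per cell cannot be told apart.

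In GENCODE on GRCm39, *Sox8* lies on chromosome 17 from 25784634 to 25789726 (minus strand), *Sox9* on chromosome 11 from 112673009 to 112678586 (plus), *Sox10* on chromosome 15 from 79039108 to 79049469 (minus) and *Tfap2a* on chromosome 13 from 40868778 to 40891852 (minus). *Tfap2b* lies on chromosome 1 from 19279138 to 19309069, *Twist1* on chromosome 12 from 34007645 to 34009828, *Snai1* on chromosome 2 from 167380113 to 167384734 and *Snai2* on chromosome 16 from 14523425 to 14527252, all on the plus strand. The libraries did not keep strand. Exons of long noncoding RNA genes on the opposite strand share bases with exons of *Sox9* (542 bases), *Tfap2a* (up to 380 bases with 1 such gene), *Tfap2b* (433 bases) and *Snai1* (206 bases), and reads from these stretches cannot be assigned to 1 strand. *Sox8*, *Sox10*, *Twist1* and *Snai2* have no such overlap.

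RefSeq promoter sequences (table build GRCm38.p6) were held for 5 of the 8 members. Bases 250 to 71 before the annotated start are shown for 1 member of the SoxE, Twist and Snail families each. In these genes that stretch holds no exon of the gene itself. The *Tfap2a* and *Tfap2b* stretches lie inside the annotated genes and are not shown. Each matched GRCm39 exactly and once on its chromosome, *Sox8* at chr17:25789731-25789910 (minus strand), *Twist1* at chr12:34007420-34007599 (plus) and *Snai1* at chr2:167379865-167380044 (plus). The *Sox8* stretch overlaps an exon of the neighbouring gene *Cerox1*. Capitals mark matches on either strand to ACAAT (the core bound by SOX proteins), CANNTG (the E-box bound by bHLH proteins such as Twist1), CAGGTG (the E-box form bound by Snail proteins, which is also a CANNTG match) and GCCNNNGGC (the AP-2 consensus).
Sox8: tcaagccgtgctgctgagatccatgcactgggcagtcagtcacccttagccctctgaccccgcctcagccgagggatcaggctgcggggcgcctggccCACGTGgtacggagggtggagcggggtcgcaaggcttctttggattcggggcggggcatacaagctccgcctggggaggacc
Twist1: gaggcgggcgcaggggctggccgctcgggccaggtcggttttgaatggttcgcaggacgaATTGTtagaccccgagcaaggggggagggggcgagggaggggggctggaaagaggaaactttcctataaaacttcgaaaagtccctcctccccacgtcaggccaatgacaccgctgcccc
Snai1: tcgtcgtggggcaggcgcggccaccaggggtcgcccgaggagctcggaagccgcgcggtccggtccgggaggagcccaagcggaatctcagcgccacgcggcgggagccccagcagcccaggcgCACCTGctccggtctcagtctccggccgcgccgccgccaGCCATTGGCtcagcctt
The *Sox8* stretch holds 1 E-box of the form CACGTG starting 152 bases before the start. That of *Twist1* holds 1 SOX match on the minus strand 190 bases before it. The *Snai1* stretch holds 1 Snail-type E-box on the minus strand at 126 bases and 1 AP-2 match at 87 bases. Over 32851 promoters and the same window, 55.5% hold CANNTG, 13.0% CAGGTG, 21.6% ACAAT and 9.22% GCCNNNGGC. The *Snai1* stretch has 24 CpG, more than 96.3% of promoters, and those of *Sox8* and *Twist1* have 12 each, more than 79.6%. These matches are a description of the letters.

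Each E9.5 library held between 8401990 and 23339359 counts. The lowest count of any member in any library was 60 reads, for *Sox8*, and the other 7 members had at least 207 reads in every library. The counts of whole genes do not check the deletion alleles, since transcripts with missing exons are still counted: *Kat6a* was at 160 to 171 CPM (counts relative to the TMM-scaled library size) in *Kat6a*-/- and 169 to 186 in WT, and *Kat6b* at 52.0 to 58.3 in *Kat6b*-/- and 38.2 to 42.6 in WT. The study describes all embryos as male, but 3 libraries, *Kat6a*-/- replicate 2 and *Kat6b*-/- replicates 2 and 3, had *Xist* at 525 to 739 CPM and the Y-linked *Ddx3y* at no more than 0.199 CPM. The other 21 libraries had *Xist* at no more than 0.507 CPM and *Ddx3y* at 39.7 CPM or above. The 3 libraries are called *Xist*-high here, and results are also given without them, a choice made after the data had been seen. Comparisons with WT share the 4 WT libraries and are not independent of each other. Some embryos of a genotype were littermates, namely *Kat6a*-/- replicates 1 and 4 and *Kat6a* E/E replicates 2 and 3. The same held for *Kat6b* E/E replicates 1 and 2 and for double-mutant replicates 1 and 3.

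Levels per length (RPKM, the CPM of a gene divided by its length in kilobases) give the order of the members within these embryos. *Twist1* had the highest, with a median of 104 RPKM over the 24 libraries (range 88.0 to 119), and every library lay above every value of the next gene, *Snai1*, at a median of 32.5 (25.8 to 38.6). *Sox9* followed with a median of 16.1 (11.3 to 28.4). It was below *Snai1* in all 24 libraries, although 1 *Sox9* value, in double-mutant replicate 2, fell within the range of *Snai1*. *Sox10* at 11.3 (7.49 to 14.9) and *Snai2* at 10.2 (7.79 to 12.4) overlapped, with *Sox10* higher in 16 of 24 libraries. *Tfap2b* at 8.003 (7.12 to 11.1) and *Tfap2a* at 7.85 (6.14 to 12.01) were not separated beyond their spread, with *Tfap2b* higher in 14 of 24. *Sox8* was lowest at 2.98 (1.77 to 4.26), and its range did not reach that of any other member.

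**Figure D1:**
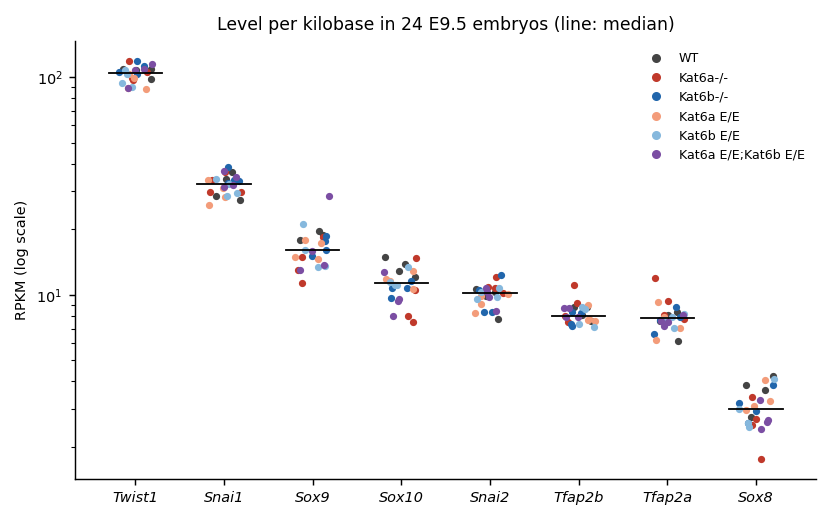
Level per kilobase (RPKM, log scale) of each member in the 24 E9.5 libraries, coloured by genotype, with the median as a line. *Twist1* (median 104) stands above and *Sox8* (median 2.98) below all other members in every genotype, while *Sox10* and *Snai2*, and *Tfap2b* and *Tfap2a*, overlap.

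The question for these genes is whether the crest factors depend on KAT6A, on KAT6B or on their acetyltransferase domains at E9.5. The limma model held 4 surrogate variables and litter as a random effect. In it, 0 of the 8 members had a false discovery rate (FDR, Benjamini-Hochberg over all 14183 genes) below 0.05 in any of 12 comparisons. Of all genes, 2.64% were called between *Kat6a*-/- and WT, 0.508% between *Kat6b*-/- and WT, 0.275% between *Kat6a* E/E and WT, 0% between *Kat6b* E/E and WT and 2.91% between double-mutant embryos and WT. In the test of any difference among the 6 genotypes 3.25% were called. At an unadjusted p below 0.05 there was 1 member in each of the comparisons of *Kat6a*-/-, *Kat6b*-/- and *Kat6a* E/E with WT, 0 for *Kat6b* E/E, 2 for double-mutant embryos and 1 in the test over all genotypes. The share of all genes at that level was 16.9%, 12.1%, 10%, 4.41%, 18.2% and 19.2% in the same order. edgeR quasi-likelihood tests also called 0 members in each of these comparisons, and DESeq2 called 1, *Sox10* in double-mutant embryos, in a fit that called 2.14% of genes lower there. In the fit with all libraries, the 95% intervals of the members' differences from WT reached at most 1.51-fold in *Kat6a*-/-, 1.42-fold in *Kat6b*-/-, 1.35-fold in *Kat6a* E/E, 1.38-fold in *Kat6b* E/E and 1.61-fold in double-mutant embryos, and the fits without or with a term for the *Xist*-high libraries, given below for *Sox10*, went beyond these limits in the deletion genotypes.

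**Figure D2:**
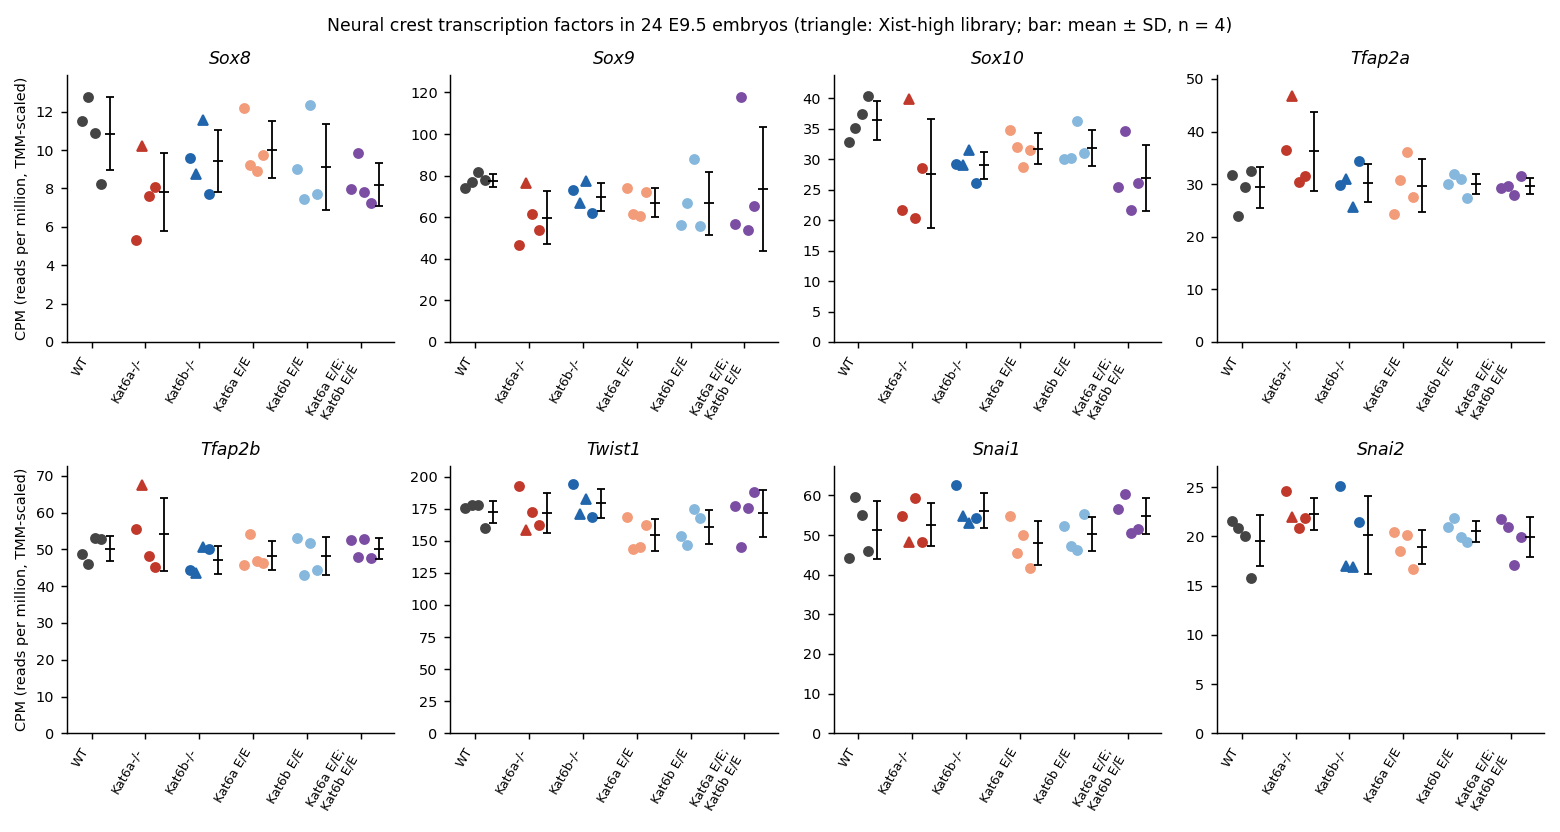
CPM of each member (TMM-scaled counts, axes from 0) in each of the 4 libraries of the 6 genotypes, with mean ± SD beside them; triangles are the *Xist*-high libraries. *Sox10* lay below all WT libraries in 4 of 4 *Kat6b*-/- libraries and in 3 of 4 of every other mutant genotype, and *Kat6a*-/- replicate 2, a triangle, is the highest *Kat6a*-/- library for *Sox8*, *Sox9*, *Sox10*, *Tfap2a* and *Tfap2b*.

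The 3 SoxE genes were the members whose differences from WT all had 1 sign. *Sox8*, *Sox9* and *Sox10* each had log2 fold changes below 0 in 5 of 5 comparisons with WT, which held for 18.3% of all genes, and no other member did. In *Kat6b*-/- those of *Sox8* and *Sox9* were close to 0, at -0.03 ± 0.14 and -0.04 ± 0.08 (SE). They kept that sign in only 18 and 21 of 23 alternative settings. In CPM, 17 (*Sox8*), 18 (*Sox9*) and 19 (*Sox10*) of the 20 mutant libraries lay below the WT mean, against 6 to 12 for the other 5 members. All 20 are set against the same WT libraries, and the share of all genes with such counts was not determined. None of these differences passed FDR below 0.05 in the limma fit with all libraries, 4 surrogate variables and the litter block. Some other fits with all libraries called *Sox10* lower in double-mutant embryos, as given below.

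*Sox10*, which drives glial and pigment cell development and is the most crest-restricted of the members, was at 32.9, 35.1, 37.5 and 40.4 CPM in WT. In double-mutant embryos it was at 25.4, 34.6, 21.6 and 26.0 CPM. Replicate 2 of that genotype lay inside the WT range and the other 3 libraries lay below it. Replicates 1 and 3 were littermates. The log2 fold change was -0.43 ± 0.13 (SE), with FDR 0.0682, the smallest FDR of any member in the 12 comparisons. It was -0.46 (FDR 0.0449) with 2 surrogate variables in place of 4 and -0.44 (FDR 0.0471) without the litter block, in fits that called 1.71% and 1.9% of genes lower. In *Kat6b*-/- embryos *Sox10* was at 29.3, 29.1, 31.6 and 26.1 CPM, so that all 4 lay below all 4 WT libraries, a separation seen for 3.44% of genes tested. The fitted difference there was -0.25 ± 0.12 on the log2 scale (FDR 0.403), and an exact permutation test of log2 CPM gave p = 0.0286, the smallest that 4 against 4 libraries allow and one that 3 of 80 such tests of members reached, before any adjustment. The 4 *Kat6a* E/E libraries, at 34.8, 32.0, 28.7 and 31.6 CPM, and the 4 *Kat6b* E/E libraries, at 30.0, 30.2, 36.3 and 31.0 CPM, each had 1 library inside the WT range and 3 below it. Their log2 fold changes were -0.19 ± 0.11 (FDR 0.601) and -0.15 ± 0.12 (FDR 0.998).

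In *Kat6a*-/- embryos *Sox10* was at 21.6, 40.0, 20.3 and 28.7 CPM. Replicate 2, the *Xist*-high library, stood at the upper end of the WT range, and the other 3 lay below every WT library. With all 4 libraries the log2 fold change was -0.24 ± 0.12 (FDR 0.324). Without replicate 2 it was -0.48 ± 0.10, with FDR 0.00631 in a fit that called 1.39% of genes lower, and without all 3 *Xist*-high libraries it was -0.49 with FDR 0.00579, where 1.67% of genes were called lower. The test over all 6 genotypes then gave FDR 0.00765 and 0.00904 for *Sox10*, in fits that called 2.86% and 3.12% of genes, against 0.292 with all libraries. Without the *Xist*-high libraries the difference between double-mutant embryos and WT was -0.48 (FDR 0.00546, with 1.95% of genes called lower), and with *Xist* status as a covariate -0.50 (FDR 0.0195, with 2.37% called lower). *Sox10* in *Kat6b*-/- stayed above FDR 0.05 in both fits, at -0.34 (FDR 0.242, with 2 *Kat6b*-/- libraries left) and -0.53 (FDR 0.0807).

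*Sox9*, the activator of cartilage genes that also acts in crest and otic vesicle, was at 74.0, 76.8, 81.7 and 77.8 CPM in WT, a narrow range with a coefficient of variation of 4.08%. In *Kat6a* E/E it was at 73.9, 61.6, 60.6 and 72.1 CPM. All 4 lay below all 4 WT libraries, replicate 1 by a small margin, a separation that 2.62% of genes showed. The fitted difference was -0.19 ± 0.07 on the log2 scale (FDR 0.358), and the exact permutation test gave p = 0.0286. Replicates 2 and 3, the lowest of this genotype, were littermates, and the permutation test does not take litter into account. *Kat6a*-/- embryos were at 46.9, 76.4, 61.7 and 54.0 CPM, with the *Xist*-high replicate 2 within the WT range and the other 3 below it. The log2 fold change was -0.15 ± 0.08 (FDR 0.324) with all libraries, -0.30 ± 0.07 (FDR 0.0275) without replicate 2 and -0.29 (FDR 0.0283) without the 3 *Xist*-high libraries.

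The double-mutant libraries were at 56.6, 117.6, 54.0 and 65.6 CPM for *Sox9*. Replicate 2 held the highest *Sox9* value of the 24 libraries. The other 3, of which replicates 1 and 3 were littermates, lay below all WT libraries. The SD of this genotype was 29.9 CPM against 3.17 in WT. The fitted difference from WT was -0.17 ± 0.08 (FDR 0.258). Replicate 2 also stood apart beyond *Sox9*, for causes that were not tested. It had *Kat6b* at 56.0 CPM, against 40.7 to 42.0 in the other double-mutant libraries and 52.0 to 58.3 in *Kat6b*-/-. Chi-square per degree of freedom of the counts over genes was 21.9 to 31.7 for its pairs with the other double-mutant libraries. Among those libraries it was 3.68 to 8.53. *Kat6b*-/- embryos were at 73.2, 66.6, 77.5 and 62.2 CPM and *Kat6b* E/E embryos at 56.3, 66.8, 88.0 and 55.9 CPM, and both sets overlapped WT. Their log2 fold changes were -0.04 ± 0.08 (FDR 0.902) and -0.13 ± 0.08 (FDR 0.998). Among the 1000 genes nearest to *Sox9* in mean expression, 99.4% had a smaller spread within genotypes, which was 0.29 on the log2 scale.

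*Sox8*, the SoxE gene with the lowest level, was at 11.5, 12.8, 10.9 and 8.25 CPM in WT. It was at 5.29, 10.2, 7.58 and 8.10 CPM in *Kat6a*-/- and at 7.95, 9.83, 7.80 and 7.23 CPM in double-mutant embryos. In each of these genotypes 3 of 4 libraries lay below all WT libraries and 1 within the WT range. The log2 fold changes were -0.29 ± 0.15 (FDR 0.318) and -0.31 ± 0.15 (FDR 0.287), with 95% intervals from -0.59 to 0.01 and from -0.62 to 0.01. The difference was -0.15 ± 0.14 in *Kat6a* E/E and -0.03 ± 0.14 in *Kat6b*-/-, with intervals that reached 0.14 and 0.27. In *Kat6b* E/E it was -0.17 ± 0.14, with an interval up to 0.13. Without the 3 *Xist*-high libraries *Sox8* was at -0.39 in *Kat6a*-/- with FDR 0.212.

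**Figure D3:**
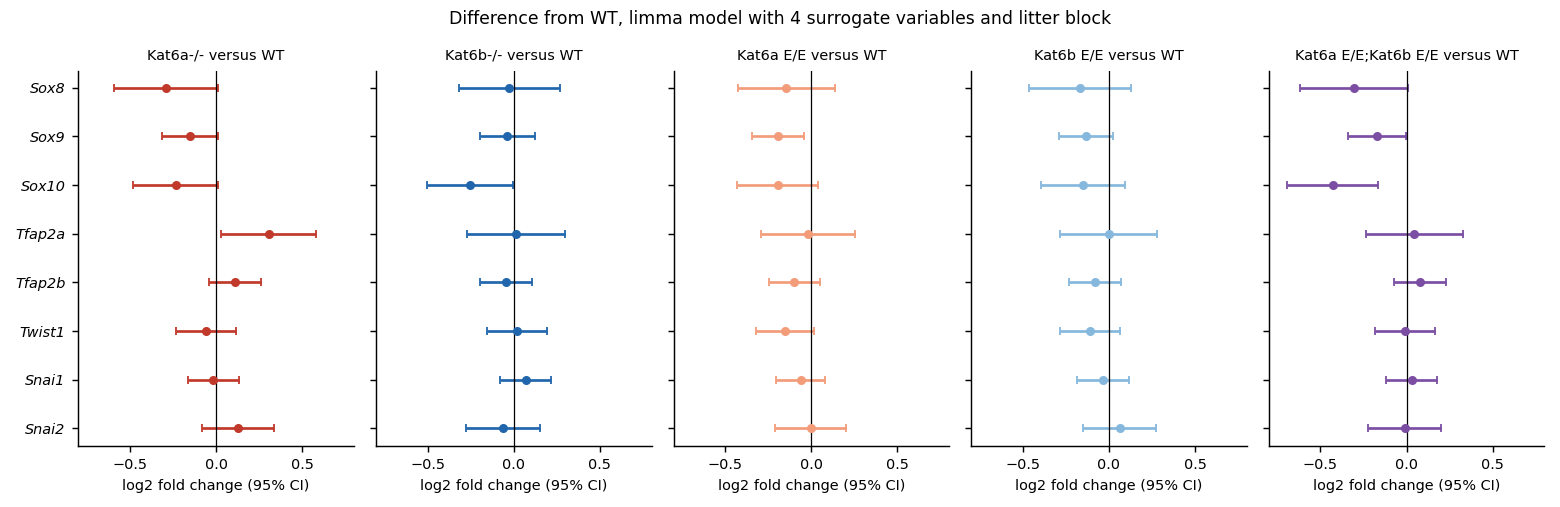
Log2 fold change from WT with its 95% confidence interval for each member in the 5 mutant genotypes, from the limma model with all 24 libraries. The 3 *Sox* genes lie left of 0 in all 5 panels, *Tfap2a* lies right of 0 in *Kat6a*-/- (0.31), and no point has an FDR below 0.05.

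*Tfap2a*, the AP-2 factor of the neural plate border and surface ectoderm, was at 31.7, 23.9, 29.5 and 32.5 CPM in WT and at 36.4, 46.8, 30.3 and 31.5 CPM in *Kat6a*-/-. *Kat6a*-/- replicates 1 and 2 lay above all WT libraries, and replicates 3 and 4 lay inside the WT range. The log2 fold change was 0.31 ± 0.13 (FDR 0.243). It was 0.08 ± 0.11 (FDR 0.793) without replicate 2 and 0.09 (FDR 0.760) without all 3 *Xist*-high libraries, so the size of the difference rested on that library. In the other 4 genotypes the *Tfap2a* means were 29.6 to 30.3 CPM, against 29.4 ± 3.86 (SD) in WT, and the fold changes were between -0.02 and 0.04 on the log2 scale with intervals no wider than -0.29 to 0.33.

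*Tfap2b*, the AP-2 factor of crest, sympathetic neurons and kidney, was at 48.7, 46.1, 53.0 and 53.0 CPM in WT and at 55.5, 67.4, 48.2 and 45.3 CPM in *Kat6a*-/-. The groups overlapped, and the difference was 0.11 ± 0.07 (FDR 0.475), which became -0.03 ± 0.09 (FDR 0.909) without replicate 2. The other genotypes ranged from 43.1 to 54.2 CPM and had log2 fold changes between -0.10 and 0.08. In the test over all genotypes *Tfap2b* had the smallest p of the members, 0.0485 (FDR 0.257).

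*Twist1*, a bHLH factor of cranial crest and mesoderm, was at 175, 178, 177 and 160 CPM in WT. Its mutant means were between 155 ± 12.4 CPM (SD) in *Kat6a* E/E and 179 ± 11.6 in *Kat6b*-/-. *Kat6a* E/E libraries were at 168, 143, 145 and 162 CPM, of which replicates 2 and 3, which were littermates, lay below all WT libraries. The difference from WT was -0.15 ± 0.08 on the log2 scale (FDR 0.559), the largest of the 5 for this gene. In double-mutant embryos it was -0.01 ± 0.08, with an interval from -0.18 to 0.16. *Twist1* had the smallest spread within genotypes of the members, 0.12 on the log2 scale, although 79.1% of the 1000 genes nearest to it in expression had a smaller one.

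*Snai1* and *Snai2* encode the zinc finger repressors of epithelial genes. *Snai1* was at 44.2, 59.7, 55.1 and 46.0 CPM in WT, and its mutant means of 47.997 to 56.2 CPM all lay within that range. The fold changes from WT were between -0.06 and 0.07 on the log2 scale, and every interval lay between -0.21 and 0.22. *Snai2* was at 21.5, 20.8, 20.05 and 15.8 CPM in WT and at 24.6, 22.0, 20.8 and 21.8 CPM in *Kat6a*-/-, where 3 of 4 libraries lay above all WT libraries. The difference was 0.13 ± 0.10 (FDR 0.579). The other genotypes had *Snai2* means of 18.9 to 20.5 CPM against 19.6 ± 2.57 in WT. In these 2 genes 1 mutant library (*Snai1*) and 0 mutant libraries (*Snai2*) of 20 lay below all WT libraries, compared with 9 (*Sox8*), 16 (*Sox9*) and 16 (*Sox10*) for the SoxE genes. *Tfap2b* and *Twist1* had 6 such libraries each and *Tfap2a* 0. Above all WT libraries lay 2 of *Sox9* and *Snai1* each, 4 of *Tfap2a*, *Tfap2b* and *Twist1* each, 6 of *Snai2* and 0 of *Sox8* and *Sox10*. These counts depend on the WT spread. The WT coefficient of variation was 17.5% (*Sox8*), 4.08% (*Sox9*), 8.83% (*Sox10*), 14.4% (*Snai1*) and 13.1% (*Snai2*). How many of all genes have such counts was not determined, and the 20 libraries share 1 set of WT libraries.

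Comparisons between mutant genotypes asked whether a point mutation differed from the deletion of the same gene. Between *Kat6a* E/E and *Kat6a*-/-, 0 of 8 members were called (1.60% of all genes) and 2 had an unadjusted p below 0.05 (15.6% of genes). These were *Tfap2b*, at -0.21 ± 0.07 in *Kat6a* E/E relative to *Kat6a*-/- (FDR 0.156), and *Tfap2a*, at -0.32 ± 0.13 (FDR 0.243). Without the *Xist*-high libraries these were -0.04 (FDR 0.902) and -0.08 (FDR 0.809), and without *Kat6a* E/E replicate 3 *Tfap2a* was at -0.43 (FDR 0.0370), where 1.25% of genes were called lower. *Snai2* in *Kat6a* E/E (20.4, 18.5, 20.1 and 16.7 CPM) lay below every *Kat6a*-/- library, a separation that 4.24% of genes showed, with an exact permutation p of 0.0286, but its fitted difference was -0.13 ± 0.10 (FDR 0.580). *Sox10* differed by 0.04 ± 0.12 with an interval from -0.22 to 0.30, and by 0.32 (FDR 0.110) without the *Xist*-high libraries. The other 4 members lay between -0.09 and 0.14. Between *Kat6b* E/E and *Kat6b*-/-, 0 members were called (0.0353% of genes) and 0 had an unadjusted p below 0.05 (8.83%). The largest differences were -0.14 ± 0.15 for *Sox8* and -0.13 ± 0.08 for *Twist1*, and the other 6 members lay between -0.11 and 0.13.

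The double-mutant embryos were compared with each deletion genotype and with the sum of the effects of the point mutations. Against *Kat6a*-/- the members had 0 calls (0.00705% of genes) and 0 unadjusted p below 0.05 (10.4%), and *Sox10* stood at -0.19 ± 0.13 with an interval from -0.47 to 0.08. *Tfap2a* had the largest difference there, -0.26 ± 0.14 (FDR 0.512), and the other 6 members lay between -0.14 and 0.05. Against *Kat6b*-/- there were also 0 calls (0.212% of genes) and 0 unadjusted p below 0.05 (10.7%), with *Sox8* at -0.28 ± 0.15, *Sox10* at -0.18 ± 0.12 and the other 6 members between -0.13 and 0.12. Between the deletions, *Kat6a*-/- and *Kat6b*-/-, 0 members were called (1.64% of genes) and 2 had an unadjusted p below 0.05 (17.3%), *Tfap2a* at 0.29 ± 0.13 (FDR 0.256) and *Tfap2b* at 0.16 ± 0.07 (FDR 0.278), higher in *Kat6a*-/-. The other 6 members lay between -0.26 and 0.19. The departure of double-mutant embryos from additivity of the point mutations was called for 0 members and 0% of genes. *Tfap2b* was the only member with an unadjusted p below 0.05 there (0.26 ± 0.11, FDR 0.720), a level that 6.42% of genes passed, and the other 7 members lay between -0.08 (*Sox10*) and 0.25 (*Twist1*).

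There were 3 litters that held both a WT and a mutant embryo. *Kat6b*-/- replicate 2 had less *Sox8*, *Sox9* and *Sox10* than its WT littermate, with differences of -0.31, -0.29 and -0.36 on the log2 scale. *Kat6a* E/E replicate 1 differed from its WT littermate by -0.07, -0.06 and -0.01 in these genes. *Kat6a*-/- replicate 2 differed from its own by -0.17, 0.04 and 0.28, and its *Tfap2a* and *Tfap2b* were 0.56 and 0.47 higher. With 1 pair per genotype these values have no replicate, and 2 of the 3 mutants were *Xist*-high libraries.

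The 3 SoxE genes varied together across the 24 libraries, which share tissue and scaling. Pearson's r of log2 CPM was 0.71 for *Sox8* and *Sox10*, 0.69 for *Sox9* and *Sox10* and 0.69 for *Sox8* and *Sox9*. After subtraction of the genotype means these were 0.60, 0.73 and 0.67, and without the *Xist*-high libraries 0.72, 0.69 and 0.67. *Tfap2a* and *Tfap2b* had r = 0.56, which dropped to 0.17 without the 2 libraries farthest from the *Tfap2a* median, so the relation rested on those libraries. *Snai1* and *Snai2* had r = 0.41 and *Twist1* and *Snai1* 0.38. Of the 28 pairs, the 3 SoxE pairs were the highest. *Sox8* and *Tfap2a* had the lowest value, -0.38. These are descriptions over libraries that are not independent of litter or genotype.

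**Figure D4:**
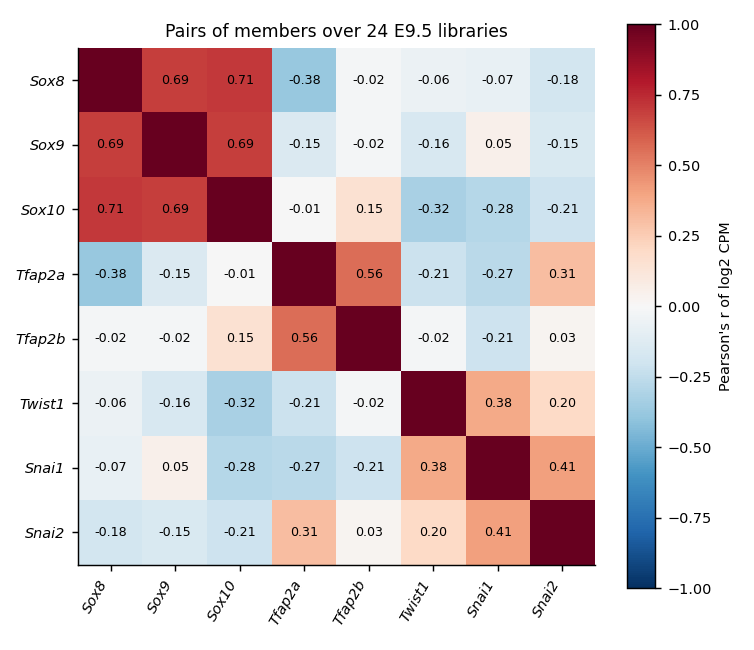
Pearson's r of log2 CPM for the 28 pairs of members over the 24 E9.5 libraries, from -1 (blue) to 1 (red). The block of *Sox8*, *Sox9* and *Sox10* (0.69 to 0.71) is the highest, and *Tfap2a* with *Tfap2b* (0.56) follows.

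Many genes were closer to a SoxE gene than the other SoxE genes were. *Sox8* ranked the highest of the members for *Sox10*, at rank 35 of 14182 genes, and *Sox10* had rank 77 for *Sox8* and rank 347 for *Sox9*. The 3 genes most like *Sox10* were *Car11* (r = 0.83), *Wiz* (0.83) and *Sult4a1* (0.80). Those most like *Sox9* were *Ptprs* (0.90), *Mapk8ip3* (0.89) and *Kifc5b* (0.89), and those most like *Sox8* were *Ebf3* (0.86), *Neurod4* (0.85) and *Rgmb* (0.84). *Neurod4* encodes a neurogenic bHLH factor. For *Tfap2a* they were the epithelial genes *Esrp1* (0.84), a splicing regulator, and *Grhl2* (0.84), a transcription factor, with *Gprc5c* (0.82). *Tfap2b* was most like *Aldh1a3* (0.72), which encodes a retinaldehyde dehydrogenase, *Nmrk1* (0.71) and *Abca9* (0.69). *Twist1* was most like *Vps18* (0.76), *Rfwd3* (0.74) and *Cstf3* (0.72), *Snai1* like *Ets2* (0.81), *Kcnab3* (0.80) and *Pde9a* (0.80), and *Snai2* like *Irf1* (0.70), *Babam1* (0.70) and *Bnc1* (0.69).

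Summed levels of marker genes of neighbouring tissues differed between genotypes, and their part in the members' values was not tested. The share of all genes called was 1.38% lower and 1.26% higher in *Kat6a*-/-, and 1.57% lower and 1.34% higher in double-mutant embryos. A list of 10 surface ectoderm genes, among them *Krt8*, *Epcam*, *Trp63* and *Grhl2*, summed to 255 to 336 CPM in WT and to 391 to 473 in *Kat6a*-/-, with no overlap, and 5 of the 10 rose in *Kat6a*-/- with a list median of 0.45 on the log2 scale against 0.00 for all genes. In double-mutant embryos the list summed to 335 to 410 CPM, overlapping WT, with a median of 0.25, and 1 of 10 rose, *Krt18* at 0.40 ± 0.08 (FDR 0.0145). *Tfap2a*, itself expressed in surface ectoderm, had its highest mean in *Kat6a*-/-. A list of 10 neural tube genes, among them *Sox1*, *Sox2*, *Pax6* and *Nes*, summed to 872 to 938 CPM in WT, 558 to 770 in *Kat6a*-/-, 617 to 818 in *Kat6b*-/- and 712 to 819 in double-mutant embryos, each below WT without overlap. *Kat6a*-/- replicate 2 was the highest of its genotype at 770 CPM, against 558 to 633 in the other 3. In *Kat6a*-/- 4 of the 10 neural tube genes fell, *Nes*, *Sox3*, *Sox2* and *Pax6*, with a list median of -0.33, and in the other comparisons with WT 0 of 10 were called. A list of 10 paraxial mesoderm genes summed to 166 to 203 CPM in *Kat6a*-/- and 222 to 258 in WT, without overlap, with a list median of -0.27 and 1 gene called lower, *Foxc2*. In double-mutant embryos it summed to 180.1 to 239.7 CPM, with a list median of -0.40. The overlap with WT came from replicate 2, at 239.7 CPM, and the other libraries of the genotype were at 180.1 to 188.8. In this genotype 3 of 10 fell, *Uncx* by 1.00 ± 0.18 (FDR 0.00557), *Nkx3-2* by 0.94 ± 0.24 (FDR 0.0332) and *Foxc2* by 0.37 ± 0.10 (FDR 0.0445). A list of 8 otic genes summed to 108 to 158 CPM in *Kat6a*-/- and 134 to 151 in WT. The overlap came from the *Xist*-high replicate 2, at 158 CPM, and the other *Kat6a*-/- libraries, at 108 to 127, lay below every WT library. The list median in *Kat6a*-/- was -0.24, and 1 of 8 fell, *Pax2*. Of 8 primitive erythroid genes 0 were called in any comparison with WT. No gene of these 5 lists was at 0 in all 24 libraries, and 7 of the 8 otic genes had reads in every library.

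**Figure D5:**
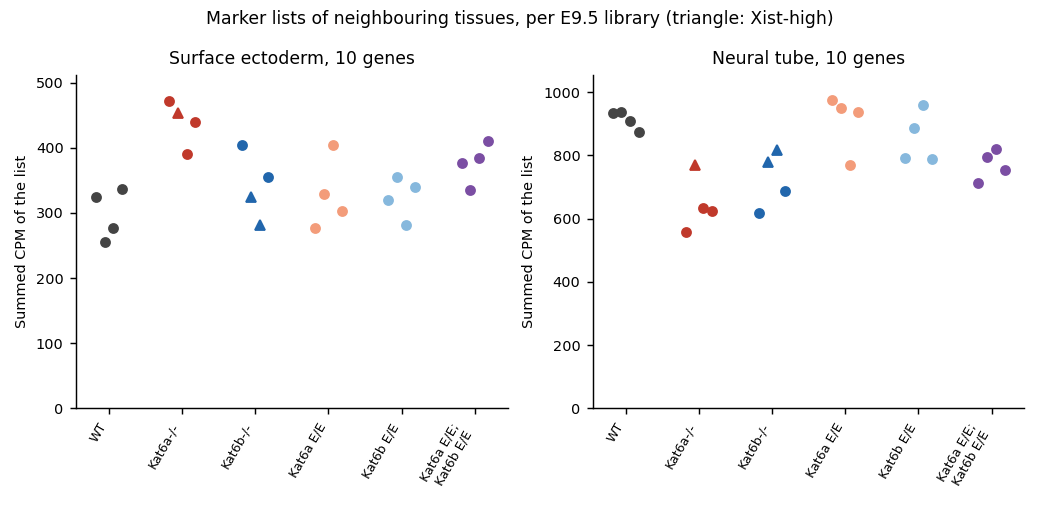
Summed CPM of 10 surface ectoderm genes (left) and 10 neural tube genes (right) in each E9.5 library by genotype, axes from 0, with triangles for the *Xist*-high libraries. The 4 *Kat6a*-/- libraries (391 to 473) lie above all WT libraries (255 to 336) for surface ectoderm and below them for neural tube.

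Other genes of the crest programme were described from 5 lists. Of all genes, 1.38% fell and 1.26% rose in *Kat6a*-/-, 0.24% fell in *Kat6a* E/E, and 1.57% fell and 1.34% rose in double-mutant embryos. Of 23 further crest transcription factors tested, 1 rose in *Kat6a*-/- and 0 fell, 1 fell in *Kat6a* E/E, and 0 were called in the other comparisons with WT, with list medians from -0.08 to 0.01 on the log2 scale. The gene that rose in *Kat6a*-/- was *Zic1*, a zinc finger factor of the neural plate border and dorsal neural tube, at 0.28 ± 0.06 (FDR 0.0210), and without the *Xist*-high libraries it was at 0.11 (FDR 0.704). *Mycn*, a proliferation factor, fell in *Kat6a* E/E by 0.28 ± 0.06 (FDR 0.0198). Of 10 genes of crest-inducing signals, which include *Wnt1*, *Bmp4* and *Fgf8*, *Notch1* fell in *Kat6a*-/- (-0.31 ± 0.06, FDR 0.00412) and in double-mutant embryos (-0.27 ± 0.06, FDR 0.0144), and the other 9 were not called in any comparison with WT.

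Of 20 adhesion and migration genes, 3 rose and 1 fell in *Kat6a*-/-. The semaphorin genes *Sema3c* and *Sema3a*, which encode secreted guidance proteins, rose by 0.37 ± 0.07 (FDR 0.00523) and 0.30 ± 0.07 (FDR 0.0173). *Cdh1*, the epithelial cadherin gene that Snail factors repress, rose by 0.52 ± 0.12 (FDR 0.0336), and *Cdh2*, the neural cadherin gene, fell by 0.18 ± 0.05 (FDR 0.0349), although it was at -0.15 with FDR 0.0828 without the *Xist*-high libraries. In double-mutant embryos *Sema3c* rose by 0.33 ± 0.07 (FDR 0.0114), and 0 of 20 were called in the other 3 genotypes. *Cdh1* is also a surface ectoderm gene, and the rise of that list in *Kat6a*-/- is given above.

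Of 15 genes of crest derivatives tested, 2 fell in *Kat6a*-/- and 0 were called in the other 4 genotypes. Among them, *Ednrb*, the endothelin receptor of enteric and pigment precursors, fell by 0.50 ± 0.11 (FDR 0.0153). The list median in *Kat6a*-/- was -0.14. Of 8 cartilage genes that Sox9 is known to activate or that accompany them, *Hapln1* rose in *Kat6a*-/- (0.33 ± 0.07, FDR 0.0120) and in double-mutant embryos (0.31 ± 0.07, FDR 0.0154), and *Col9a1* fell in double-mutant embryos (-0.23 ± 0.06, FDR 0.0340). *Hapln1*, which encodes a link protein of the hyaluronan matrix, is also expressed in the developing heart. A list of 8 heart genes had a median of 0.23 in *Kat6a*-/- and 0.20 in double-mutant embryos, with 1 of 8 called higher in each, *Tnni1* and *Tnnt2*. It summed to 990.4 to 1665 CPM in *Kat6a*-/- and 1343 to 1596 in double-mutant embryos, against 936 to 1494 in WT, with overlap in both, and its part in the *Hapln1* values was not tested. Without the *Xist*-high libraries *Hapln1* in *Kat6a*-/- was at 0.31 with FDR 0.0538.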

How the data were processed

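Count data of 40 bulk RNA-sequencing libraries were deposited, of which 24 whole E9.5 embryos were compared and 16 libraries of E14.5 fetal liver LSK cells were read for detection only. Values are raw counts of read pairs per gene, not normalised and not pooled, which the authors made with Rsubread alignment to mm39 and featureCounts on RefSeq genes from unstranded TruSeq libraries. Genotypes and litters came from the sample labels.

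The model of the study's methods was fitted with limma 3.58.1 and edgeR 4.0.16 in R 4.3.3 to all E9.5 libraries, with protein-coding genes only (Y-linked genes removed) that passed filterByExpr, TMM normalisation, and voomLmFit with robust moderation. The design held genotype and 4 surrogate variables (wsva), and litters were a random effect (correlation 0.107). Of 26411 genes, 26359 were matched by identifier to a RefSeq gene table of GRCm38.p6, used for gene types only, and 14183 were tested. Genes with FDR<0.05 over all genes tested are called. CPM are TMM-scaled, log2 CPM used a prior count of 2, and RPKM used the gene lengths of the count data. Exact permutation tests were two-sided over the 70 splits of 4 against 4 libraries, with 80 tests in all, not adjusted. They do not take shared litters into account. Correlations are descriptions without a test. The procedure was tested on simulated data. No 2 libraries of a genotype agreed within sampling noise.

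The members, gene lists and tests were chosen with earlier results of these data known. All 8 members are covered in every comparison, some by their range in those between mutant genotypes. From the lists, genes with FDR<0.05 against WT are named, and for each member the 3 genes with the highest r; genes of the marker lists are named as examples, and 1 gene that the rule names is not reported here. Alternatives were other numbers or weights of surrogate variables, no litter block, edgeR quasi-likelihood tests, DESeq2 1.42.0, DESeq2 size factors, no filter, all genes, a replicate block, only the libraries compared, and omission of each library; handling of the *Xist*-high libraries was added after the data had been seen, as were the alternatives for the gene lists.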

Additional observations from a re-analysis of the deposited data

Results flagged for a closer look

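The members' CPM were checked for a single library apart from its genotype in 48 groups of 4, and 3 passed Dixon's 95% critical value for 4 samples; chance gives about 1 in 20 groups. *Sox10* in *Kat6b* E/E had a ratio of 0.840, with replicate 3 at 36.3 CPM and the others at 30.0 to 31.0. *Tfap2b* in *Kat6a* E/E had a ratio of 0.876, with replicate 2 at 54.2 CPM and the others at 45.7 to 46.8. *Twist1* in WT had a ratio of 0.864, with replicate 4 at 160 CPM and the others at 175 to 178. *Sox9* in double-mutant embryos, with replicate 2 at 117.6 CPM, had a ratio of 0.818 and did not pass.

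The fetal liver LSK libraries, blood stem and progenitor cells that entered no comparison, held a few reads of 2 members above the CPM of all 4 WT LSK libraries, counting libraries with more than 3 reads. *Sox8* had 8, 5 and 4 reads in 3 *Kat6a* E/E libraries and 7 reads in 1 *Kat6b* E/E library, against at most 1 read in WT and also at most 1 read in the double-mutant libraries, which carry both mutations. *Tfap2a* reached 34 and 24 reads in 2 double-mutant libraries, 11 reads in *Kat6b* E/E and 9 reads in *Kat6a* E/E, with 2 libraries of each genotype above all WT libraries in CPM, against 1 to 9 reads in WT. The 2 double-mutant libraries with 34 and 24 *Tfap2a* reads were littermates, and replicate 3 of the same litter had 0 reads. WT LSK replicates 1, 2 and 3 were also littermates. How many of all genes show such counts was not determined, and the differences between genotypes were not tested.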

How the results depend on the processing

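The 12 counts of called members were recomputed under the alternatives, and 10 of 299 recomputed counts changed, all upwards from 0. For *Kat6a*-/- against WT the count was 2 (*Sox9* and *Sox10*) without the 3 *Xist*-high libraries, and over the omission of single libraries it ranged from 0 to 2, with 2 when *Kat6a*-/- replicate 2 was left out. For the double mutants against WT it was 1 (*Sox10*) with 2 surrogate variables (FDR 0.0449), without the litter block (FDR 0.0471), with DESeq2 and 4 surrogate variables (FDR 0.0145), with *Xist* status as a covariate and without the *Xist*-high libraries, and 0 in the other 18 of 23 settings, where FDR reached 0.350 without surrogate variables. The log2 fold change of *Sox10* there stayed between -0.50 and -0.36. Between *Kat6a* E/E and *Kat6a*-/- the count ranged from 0 to 1, with 1 (*Tfap2a*, FDR 0.0370) without *Kat6a* E/E replicate 3. In the test over all genotypes it was 1 (*Sox10*) without the *Xist*-high libraries and ranged from 0 to 1 over omitted libraries, with 1 without *Kat6a*-/- replicate 2. The causes were not tested. With a replicate block the counts stayed at 0 in all 12 comparisons (FDR 0.112 for *Sox10* in the double mutants); libraries of the same number correlated at -0.23 to 0.31, so the numbers were not taken as pairs. Of 2088 fold changes of members under alternatives, 226 had the other sign, none of them called, and 44 of 88 kept their sign throughout. No mean CPM moved by more than its SD with DESeq2 size factors, and 7 of 28 correlations, none of a SoxE pair, changed sign within genotypes. Of the genes named from the crest lists, *Sema3c* in *Kat6a*-/- was called in 23 of 23 settings. In the same genotype *Ednrb* was called in 21, *Hapln1* in 20, *Sema3a* and *Notch1* in 19 each, *Cdh1* in 18, and *Zic1* and *Cdh2* in 10 each. In double-mutant embryos *Hapln1* was called in 19, *Sema3c* in 18, *Notch1* in 15 and *Col9a1* in 14. *Mycn* in *Kat6a* E/E was called in 12.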

Other observations

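Levels of the members in the 16 fetal liver LSK libraries, with 12270400 to 59216500 counts each, were at or near 0, and they are given as values only. *Tfap2b* had 1 read in all 16 libraries together, *Sox9* 6 reads and *Sox10* 9 reads. *Snai2* had 17, *Snai1* 22, *Twist1* 26, *Sox8* 32 and *Tfap2a* 121 reads in all. The highest level of any member in an LSK library was 1.42 CPM, for *Tfap2a*, and the lowest *Tfap2a* level in an E9.5 library was 16.5 times as high. For *Tfap2b* that ratio was 1160 and for *Twist1* 341. A library with 0 reads of a gene allows up to 3 reads, which covers counting error only.

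Without the *Xist*-high libraries, *Sox9* and *Sox10* passed FDR below 0.05 in *Kat6a*-/- and *Zic1* no longer did. In the same setting 3 of 15 crest derivative genes fell in *Kat6a*-/-, against 2 with all libraries. *Kat6a*-/- replicate 2 and *Kat6b*-/- replicate 2 each had a WT littermate that was not *Xist*-high, a pair that also differs in genotype. The *Xist* level and the other features of these 3 embryos, among them the litter of *Kat6b*-/- replicate 3, cannot be told apart.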
